A study of Mus musculus with 24 samples.

Results

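The genes described are 7 mouse members of the PRAME family, namely Pramef6, Pramef8, Pramef12, Pramef17, Pramef25, Pramel6 and Pramel7, out of 55487 gene IDs counted in each library. They were taken by name: each is the row whose Ensembl ID carries that symbol in GENCODE release M21, and all 7 were found. The libraries are RNA-seq of KH2, a line of mouse embryonic stem cells, and every group, untreated controls included, carries TRE_DUX, a DUX gene behind a promoter that doxycycline (DOX) switches on. The 24 libraries form 12 groups of 2. A first set holds a WT line and a line labelled DUXBL_KO, with libraries taken before DOX and after 16 h of it. A second set, whose labels carry the word pLV2, holds WT pLV2 line 1, WT pLV2 line 2, a line labelled TRIM24_KO and a line labelled TRIM33_KO, sampled in the same 2 conditions. What pLV2 is goes unexplained in the labels, as does which WT pLV2 line belongs to which knockout, and whether a line is 1 clone. They also do not say whether the 2 libraries of a group came from separate cultures, so the p-values measure the spread between libraries, which may be technical.

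PRAME family proteins are built from leucine-rich repeats, and several act as the substrate-binding part of CUL2 ubiquitin ligases, which mark proteins for breakdown. The mouse genome holds many copies, mostly in clusters, and they are known for expression in oocytes, early embryos, germ cells and pluripotent stem cells. DUX is a homeobox transcription factor of the early mouse embryo, and its expression in stem cells turns on genes of the 2-cell stage, among them Zscan4 genes and the endogenous retrovirus MERVL. DUXBL is a related homeobox protein, and TRIM24 and TRIM33 are chromatin-associated proteins with ubiquitin ligase domains.

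Between 11784696 and 19136869 reads were counted on genes per library. The stem cell identity of the libraries was checked with 10 pluripotency genes, whose summed level lay between 4467 and 6186 CPM (counts per 1000000 gene counts, scaled by library within each set) without DOX and between 3930.3 and 6002 CPM with DOX. Within lines the mean sum with DOX was lower in line 2 (4128 against 4695 CPM), TRIM24_KO (4085 against 4539.7) and TRIM33_KO (4079 against 4821), and close to the untreated one in line 1 (5216 against 5203). In line 2, TRIM24_KO and TRIM33_KO edgeR called 5, 6 and 5 of the 10 genes lower, beside 13.3%, 6.54% and 23.0% of all genes. It called 1 higher in each, beside 12.7%, 10.3% and 15.1%. In line 1 it called 2 higher and 1 lower, beside 10.6% and 4.48%, and in WT and DUXBL_KO 0. The growth protocol names feeder fibroblasts as an option. Of 12 fibroblast genes, 7 or 8 exceeded 3 counts in each group, among them Fbln1 (292 to 832 counts), Col5a1 (112 to 401), Thy1 (89 to 414) and Col1a1 (13 to 95), and Col3a1, Postn, Lum and Dcn had at most 3 in any library, while the summed level of the list was 662 to 1920.4 CPM without DOX and 686 to 1667 CPM with DOX, nearly all of it Fn1 (603 to 1843 CPM). Of the 8 fibroblast genes tested, edgeR called 2 higher and 0 lower with DOX in line 1, 1 and 1 in line 2, 3 and 0 in TRIM24_KO, 3 and 2 in TRIM33_KO, and 0 in WT and DUXBL_KO. The shares of all genes given for the pluripotency genes apply here too. Trim33 lay at 16.5 to 21.9 CPM in the libraries labelled TRIM33_KO and at 85.5 to 169 CPM in the rest of its set. Trim24 lay at 118 to 138 CPM in the libraries labelled TRIM24_KO and at 93.1 to 264 CPM in the rest of its set, and Duxbl1 at 5.02 to 11 CPM with DOX in the libraries labelled DUXBL_KO and at 3.25 to 8.41 CPM in WT with DOX. The counts of the targeted gene therefore set the TRIM33_KO libraries apart, but not those labelled TRIM24_KO or DUXBL_KO, and the labels do not give the edit. In 8 libraries of the second set the treatment field disagrees with the title, and the titles were followed. In all 12 libraries titled with DOX, Duxf3 (the GENCODE name of Dux) had 20 to 110 counts, against at most 2 in those titled without it.

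The members fall on chromosomes 4 and 2 (GRCm38 coordinates). Pramef8 (ENSMUSG00000046862.14, chr4:143412426-143421091, plus strand) and Pramef12 (ENSMUSG00000028591.11, chr4:144391674-144408464, minus strand) stand near the outer ends of a cluster, and the 5 chromosome 4 members span 996.0 kb. Pramef6 (ENSMUSG00000078512.8, chr4:143894237-143900380), Pramef25 (ENSMUSG00000078511.3, chr4:143948580-143951016) and Pramef17 (ENSMUSG00000078509.1, chr4:143991119-143994369) lie between them on the minus strand, within 100.1 kb of each other. Pramel7 (ENSMUSG00000025839.3, chr2:87489087-87497093, minus strand) and Pramel6 (ENSMUSG00000025838.12, chr2:87506565-87510872, plus strand) lie 9.5 kb apart on chromosome 2. All 7 are annotated as protein coding. In RefSeq, Pramef6, Pramef8, Pramef12, Pramef17 and Pramef25 are named Pramel11, Pramel12, Pramel13, Pramel14 and Pramel16.

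Of the members, Pramef17 and Pramel7 are the closest in sequence. Their longest GENCODE transcripts are 81.6% identical over aligned bases, the highest of 21 pairs, and the lowest pair is at 64.3%. Their promoters, read here as the 250 bases before and 50 bases after the RefSeq start (assembly GRCm38.p6), are 81.0% identical, the highest of 15 pairs, where the next pair, Pramef25 and Pramel7, is at 71.7% and the lowest at 55.8%. Both are shown because Pramef17 is among the genes that rose most with DOX and Pramel7 is not. Capitals mark the 66 bases of each window that have no identical partner in the alignment, and the remaining 234 are shared. The Pramef17 window is chr4:143994320-143994619 and the Pramel7 window is chr2:87492369-87492668, both on the minus strand, and the RefSeq start of Pramel7 lies inside the GENCODE gene. The Pramef25 window (chr4:143950967-143951266, minus strand) belongs to the member with the highest level after DOX and is shown in lower case throughout. The RefSeq promoter table held 6 of the 7 members, and Pramef8 was not among them.
Pramef17: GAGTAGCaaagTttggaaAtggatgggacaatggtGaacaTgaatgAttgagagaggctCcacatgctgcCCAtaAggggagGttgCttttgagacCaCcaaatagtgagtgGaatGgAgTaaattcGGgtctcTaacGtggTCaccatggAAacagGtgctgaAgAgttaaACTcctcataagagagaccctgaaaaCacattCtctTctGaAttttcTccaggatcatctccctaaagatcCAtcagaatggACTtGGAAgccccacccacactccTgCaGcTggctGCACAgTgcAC
Pramel7: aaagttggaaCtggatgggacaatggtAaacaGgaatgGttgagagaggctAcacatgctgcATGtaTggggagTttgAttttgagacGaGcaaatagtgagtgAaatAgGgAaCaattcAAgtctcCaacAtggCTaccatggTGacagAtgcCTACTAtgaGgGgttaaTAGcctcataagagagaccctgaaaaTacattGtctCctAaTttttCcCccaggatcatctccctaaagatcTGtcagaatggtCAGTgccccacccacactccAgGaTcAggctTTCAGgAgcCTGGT
Pramef25: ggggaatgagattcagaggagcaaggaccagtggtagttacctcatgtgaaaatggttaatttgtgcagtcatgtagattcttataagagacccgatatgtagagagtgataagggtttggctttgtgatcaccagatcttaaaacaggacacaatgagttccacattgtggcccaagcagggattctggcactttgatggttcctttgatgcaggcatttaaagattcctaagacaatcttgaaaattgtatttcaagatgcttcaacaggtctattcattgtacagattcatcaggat
The letters GATTNAATC, the core of a form of the DUX binding motif, were searched on both strands and were in none of the 6 member windows in the table and in 0.268% of 32851 promoters of the same length. Of 3 other family genes of the cluster whose windows were read, it was in that of Gm13043 and not in those of Pramel1 and Pramel5. This says only which letters these windows hold.

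Copies in this family share sequence, which limits what a count means. Of all runs of 75 bases (the read length) in the Pramef17 transcript, 64.4% also occur in Gm13128, a neighbour in the cluster. For Pramef25 43.1% occur in transcripts of other genes, chiefly Gm13043, Gm13040, Gm13057 and BC080695, and for Pramef6 25.4%, chiefly Gm13083. The counts of these 3 genes are therefore uncertain to that extent, since the sources used here do not say how reads with several matches were assigned. No such run of Pramef8, Pramef12, Pramel6 or Pramel7 occurs in another gene's transcript. Pramef12 overlaps the antisense gene Pramef12os, which had at most 20 counts in any library. The kit keeps strand, but whether counting used it is not given.

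Pramef6, Pramef17 and Pramef25 went from almost no reads to clear expression with DOX in all 6 lines, as the plot of CPM by library shows. Pramef8 was expressed throughout and rose by at most 2.09-fold, in TRIM33_KO. Pramef12 was expressed throughout and did not rise in any line. Pramel6 and Pramel7 stayed at 1 to 23 counts per library. Each difference below was tested with edgeR's quasi-likelihood test on the counts, with p adjusted by the Benjamini-Hochberg method over all genes tested (18060 in the first set, 18079 in the second), and a gene is called at an adjusted p under 0.05. Where libraries of 2 groups are said to overlap or not, this describes 2 libraries a side. It is no test, and it was not counted over all genes. In bulk RNA, more cells that express a gene and more RNA per cell cannot be told apart.

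**Figure D1:**
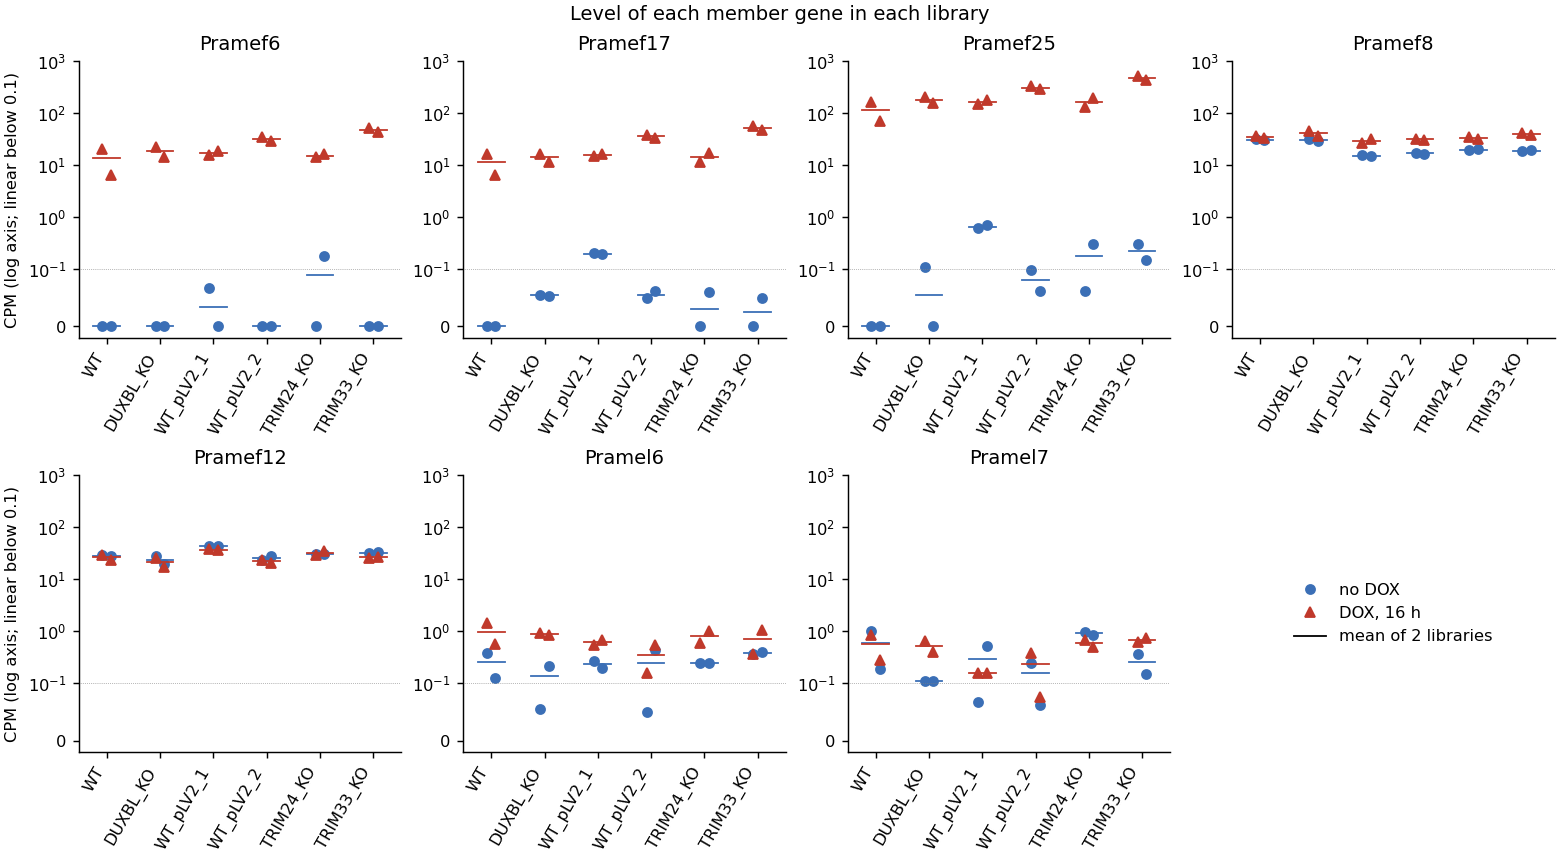
CPM of each member (log axis, linear below 0.1) in every library by line, with circles for no DOX, triangles for 16 h of DOX and a line at the mean of the 2 libraries. Pramef6, Pramef17 and Pramef25 stay at or below 0.697 CPM without DOX and lie between 6.38 and 526 CPM with it, while Pramef8 and Pramef12 lie between 14.6 and 45.6 CPM in every library.

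With DOX, 3 of the 7 members tested were called higher and 0 lower in WT, where 2.92% of all genes were called higher and 0.0831% lower. The WT share of higher genes fell to 0.79% without untreated replicate 1, to 0.29% without untreated replicate 2 and to 0.61% with only the 2 WT groups fitted. In the line labelled DUXBL_KO it was again 3 of 7 higher and 0 lower, against 4.53% and 0.404% of all genes. In the second set 6 members were tested, because Pramel6 had too few reads for the filter on low counts. There 4 of 6 were called higher in WT pLV2 line 1 (10.6% of all genes higher, 4.48% lower), in WT pLV2 line 2 (12.7% and 13.3%), in TRIM24_KO (10.3% and 6.54%) and in TRIM33_KO (15.1% and 23.0%). The balance of higher and lower genes turned under another scaling in line 2 and TRIM33_KO, to 14.38% and 9.92% and to 19.25% and 15.03% with RLE size factors, and to 12.37% and 7.12% and to 16.84% and 10.95% with DESeq2. Of these 6, 0 were called lower in the first 3 of these lines and 1, Pramef12, in TRIM33_KO. Pramef6, Pramef17 and Pramef25 passed the filter through their DOX libraries only, so a gene like them had to differ once it was tested.

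Pramef25 had the highest level per kb of exon of the 7 after DOX, between 69.2 CPM per kb on average in WT and 283 in TRIM33_KO. In WT it had 0 and 0 counts without DOX and 2705 and 1263 with DOX, in replicates 1 and 2. In the line labelled DUXBL_KO it had 2 and 0 counts without DOX and 3160 and 2820 with DOX. The WT value is at least 1128-fold higher with DOX, taking 3 counts over the untreated group as the limit that a count of 0 allows, and the DUXBL_KO value is a ratio of 3332 with a 95% counting interval of 922 to 27518. In WT pLV2 line 1 the counts were 9 and 11 without DOX and 1971 and 2370 with it, and in WT pLV2 line 2 they were 2 and 1 and then 4234 and 3840. TRIM24_KO libraries had 1 and 5 counts, then 1544 and 1557, and TRIM33_KO libraries 6 and 3, then 5898 and 4057. Every DOX library was thus far above every untreated one, although the size of the fold rests on single untreated libraries. The log2 fold change was 7.97 ± 0.27 (SE) in line 1, 9.73 ± 0.32 in TRIM24_KO and 11.01 ± 0.29 in TRIM33_KO, and in line 2 the ratio was 3760.0 with a counting interval of 1286 to 18236. In TRIM24_KO the log2 fold change was 9.04 without untreated replicate 1 and 11.17 without untreated replicate 2. In DUXBL_KO the fitted log2 fold change of 11.53 became 10.61 without untreated replicate 2, and without replicate 1 only a library with 0 counts remained. Without treated replicate 1 the WT value fell by 0.74 on the log2 scale. Adjusted p from edgeR was 0.00351 in WT, 0.00158 in DUXBL_KO and at most 1.15e-12 in the second set. Intervals and limits from counts cover counting error only.

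Pramef6 was the least detectable of these 3 genes before DOX. Untreated libraries had 0 counts in 10 of 12 cases, the exceptions being 1 in WT pLV2 line 1 and 3 in TRIM24_KO. With DOX the counts were 339 and 118 in WT, 338 and 263 in DUXBL_KO, 205 and 247 in line 1, 452 and 385 in line 2, 168 and 131 in TRIM24_KO, and 565 and 413 in TRIM33_KO. No treated library came near the untreated ones. It was at least 129.9-fold higher in WT, 223-fold in DUXBL_KO, 389.8-fold in line 2 and 635-fold in TRIM33_KO, and the ratio was 528 (counting interval 94.3 to 20914) in line 1 and 165 (56.0 to 805) in TRIM24_KO. Each of these ratios rests on 1 untreated library: the fitted log2 fold change was 8.71 in line 1 and 7.83 without untreated replicate 2, and 7.25 in TRIM24_KO and 6.33 without untreated replicate 1, while leaving out the other untreated library left 0 counts. Without treated replicate 1 the WT value fell by 1.05 on the log2 scale, and without treated replicate 2 it was higher by 0.59. Adjusted p from edgeR was 0.0213 in WT, 0.00959 in DUXBL_KO and at most 1.15e-09 in the second set. In WT the call was lost when replicate 1 or replicate 2 of the untreated libraries was left out (adjusted p 0.0980 and 0.113) and when only the 2 WT groups were fitted (0.0717).

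Pramef17, the one whose transcript and promoter resemble Pramel7, reached levels per kb close to those of Pramef6. Untreated libraries had 0 or 1 count in every line except WT pLV2 line 1, which had 3 and 3. With DOX the counts were 267 and 116 in WT, 250 and 209 in DUXBL_KO, 192 and 212 in line 1, 486 and 446 in line 2, 136 and 134 in TRIM24_KO, and 637 and 436 in TRIM33_KO. Treated and untreated libraries did not overlap in any line. The WT level was at least 109-fold higher with DOX, and the log2 fold change in line 1 was 6.24 ± 0.33. The ratio was 256 in DUXBL_KO (counting interval 70.4 to 2118), 651 in line 2 (180 to 5384), 447 in TRIM24_KO (79.6 to 17737) and 2090 in TRIM33_KO (374 to 82611). The fitted log2 fold change of 8.47 in TRIM24_KO and 10.59 in TRIM33_KO became 7.66 and 9.80 without untreated replicate 1, and without replicate 2 only 0 counts remained. Without treated replicate 1 the WT value fell by 0.81 on the log2 scale. Adjusted p from edgeR was 0.00593 in WT, 0.00290 in DUXBL_KO and at most 1.75e-10 in the second set. In WT the call was lost without untreated replicate 2 (adjusted p 0.0539) and when only the 2 WT groups were fitted (0.0566).

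Across the 12 DOX libraries the proportions of the 3 genes varied less than their levels, but they shifted with the line. Per kb of exon, the Pramef25 level was 9.89 to 14.7 times that of Pramef6 (median 12) and 8.96 to 14 times that of Pramef17 (median 11). The Pramef17 level per kb was 0.881 to 1.38 times that of Pramef6. Pramef25 was at 8.96 to 9.69 times Pramef17 in line 2 and TRIM33_KO, and at 10.5 to 14 times in the other 8 libraries. Across these 12 libraries the Pearson correlation with Pramef25 was 0.987 for Pramef6 and 0.985 for Pramef17. It was taken on log2(CPM + 1), scaled over all 24 libraries. Zscan4c, a marker of the 2-cell-like state, tracked them too, at 0.977 with Pramef25, 0.992 with Pramef17 and 0.974 with Pramef6. With Pramef25, MERVL-int was at 0.952, the 2-cell genes Tcstv3 and Zfp352 at 0.945 and 0.874, and Duxf3 at 0.647. Without the 2 libraries farthest from the median these were 0.889, 0.874, 0.730 and 0.388, and Zscan4c was at 0.954. These are descriptions over libraries that share lines and scaling, and the 4 libraries of WT pLV2 line 2 and TRIM33_KO stand apart from the other 8, as the plot against Zscan4c shows.

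**Figure D2:**
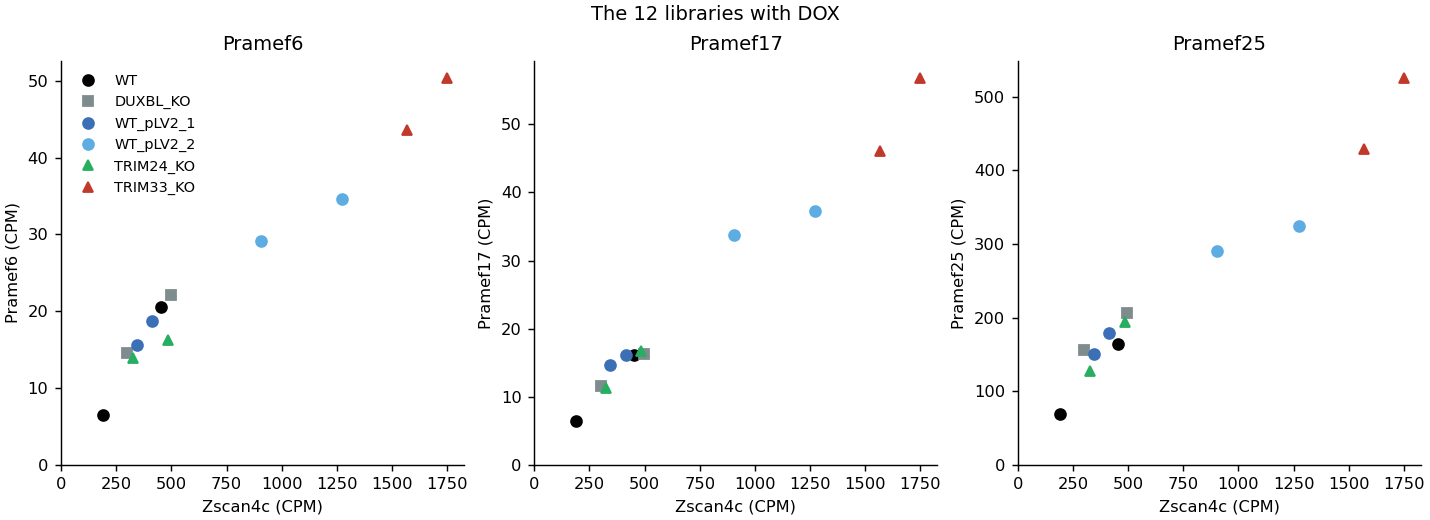
CPM of Pramef6, Pramef17 and Pramef25 against CPM of Zscan4c in the 12 libraries with DOX, with 1 point per library and a colour per line. The 2 TRIM33_KO libraries and the 2 of WT pLV2 line 2 lie above the other 8 in each panel.

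Over all 24 libraries, the 2 genes outside the family whose level, as log2(CPM + 1), was most like each of these 3, among 12065 candidates, were Gm21847 and Gm4027 for Pramef6 (Pearson r 0.999 and 0.998), Gm2022 and Gm2035 for Pramef17 (0.999 and 0.998), and Zscan4c and Gm4340 for Pramef25 (both 0.999). These values span libraries with and without DOX.

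Pramef8 was expressed with and without DOX. In WT it had 411 and 490 counts without DOX and 604 and 591 with it, and in DUXBL_KO 571 and 541, then 698 and 661. In WT pLV2 line 1 it had 229 and 231, then 346 and 409, and in line 2 351 and 263, then 421 and 400. In TRIM24_KO it had 320 and 340, then 412 and 258, and in TRIM33_KO 366 and 393, then 458 and 358. In the last 2 lines the raw counts overlap, and it is the scaled level that separates treated from untreated libraries: 33.1 ± 1.44 against 19.8 ± 0.49 CPM in TRIM24_KO and 39.3 ± 2.12 against 18.8 ± 0.65 CPM in TRIM33_KO (SD, n = 2). In CPM, treated libraries were above untreated ones in all 6 lines. The log2 fold change was 0.94 ± 0.10 in line 1, 0.91 ± 0.10 in line 2, 0.74 ± 0.10 in TRIM24_KO and 1.06 ± 0.10 in TRIM33_KO, with edgeR adjusted p between 1.89e-07 and 3.50e-05. In the first set it was 0.18 ± 0.14 in WT (adjusted p 0.789) and 0.46 ± 0.14 in DUXBL_KO (0.159), and neither was called. With the replicate number added to the fit as a block, DUXBL_KO was called, at 0.45 ± 0.10 (edgeR adjusted p 0.0229). Before DOX Pramef8 stood at 29.8 to 30.5 CPM on average in the first set and at 14.9 to 19.8 CPM in the second, but the sets were scaled and fitted apart and this difference was not tested.

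**Figure D3:**
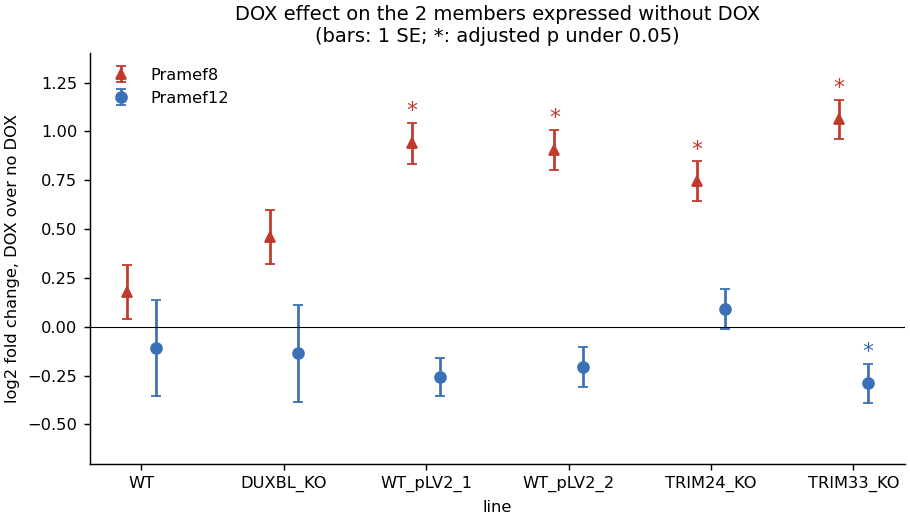
Fitted log2 fold change of DOX over no DOX for Pramef8 (triangles) and Pramef12 (circles) in each line, with bars of 1 SE and an asterisk at an adjusted p under 0.05. Pramef8 lies between 0.74 and 1.06 in the 4 lines of the second set, and Pramef12 lies between -0.29 and 0.09 in all 6 lines.

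Pramef12, a gene known for its part in the self-renewal of sperm precursor cells, had the highest level of the 7 per kb of exon without DOX in all 6 lines, at 9.07 to 17.0 CPM per kb on average, against 3.58 to 7.31 for Pramef8. In WT it had 386 and 449 counts without DOX and 483 and 423 with it, and in DUXBL_KO 508 and 360, then 391 and 308. In line 1 it had 654 and 694, then 492 and 472, and in line 2 472 and 445, then 299 and 273. In TRIM24_KO it had 490 and 507, then 358 and 277, and in TRIM33_KO 625 and 662, then 286 and 254. In CPM the treated libraries were lower in line 1, line 2 and TRIM33_KO and overlapped the untreated ones in the other 3 lines. The only call was in TRIM33_KO, where the log2 fold change was -0.29 ± 0.10 (edgeR adjusted p = 0.0321). The median of all genes there was -0.12 and moved up by 0.11 under another scaling (RLE size factors), under which Pramef12 was at -0.18 with adjusted p 0.208. The TRIM33_KO call was also lost with DESeq2 (adjusted p 0.337), with no filter (0.0587), with only the 2 groups fitted (0.139), with all 24 libraries in 1 fit (0.187) and when any 1 of 5 libraries was left out (0.0672 to 0.177). The 95% interval of the log2 fold change, from the normal distribution, was -0.59 to 0.37 in WT.

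The clearest difference in Pramef12 was between the 2 WT pLV2 lines. Without DOX it stood at 43.8 ± 0.29 CPM in line 1 and 25.2 ± 2.85 CPM in line 2 (SD, n = 2), a log2 difference of -0.80 ± 0.10 for line 2 (edgeR adjusted p = 6.30e-06). With DOX it was 36.6 ± 1.19 against 21.8 ± 1.62 CPM, a log2 difference of -0.75 ± 0.10 (2.26e-05). Libraries of the 2 lines did not overlap in either condition. The genes most like Pramef12 over the 24 libraries were Hpn and Sox15 (r = 0.920 and 0.906), and those most like Pramef8 were Slc27a2 and Brd2 (0.941 and 0.935).

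Pramel6 and Pramel7, neighbours on chromosome 2 and known from the early embryo and the ground state of stem cells, were near the limit of detection. Pramel6 had 1 to 8 counts without DOX (median 4) and 2 to 23 with it (median 8.5). In CPM its treated libraries were above the untreated ones in 4 lines and overlapped them in 2, which is no test of a response. In the first set WT gave a log2 fold change of 1.97 ± 0.74 and DUXBL_KO one of 2.63 ± 0.79, and neither was called by edgeR (adjusted p 0.364 and 0.153). Pramel7 had 1 to 16 counts without DOX (median 4) and 1 to 14 with it (median 6). Its treated libraries were above the untreated ones in DUXBL_KO and TRIM33_KO, below them in TRIM24_KO and overlapping in the remaining 3 lines, and no line was called (adjusted p from edgeR 0.135 to 1.00). The SE of these fold changes, 0.63 to 1.04 on the log2 scale, was of the size of the Pramef8 effect, so a change of that size was not detectable here. The highest Pramel7 count in any library, 16, lies below the lowest treated count of Pramef17, 116.

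Before DOX, the lines were compared with each other. In DUXBL_KO against WT 0 of 7 members were called (edgeR), 0 had an unadjusted p under 0.05 and DESeq2 called 0, where edgeR called 0.0388% of all genes, DESeq2 called 0.29% higher and 0.68% lower, and 1595 of 18060 genes had an unadjusted p under 0.05 in edgeR. For TRIM24_KO the reference was the average of WT pLV2 lines 1 and 2, and 2 of 6 members were called higher and 0 lower, beside 22.3% and 19.9% of all genes. These were Pramef8, by 0.33 ± 0.09 on the log2 scale (adjusted p = 0.00697), and Pramel7, by 2.00 ± 0.56 (0.00760), the latter from 30 counts over the 2 TRIM24_KO libraries against 9 in line 1 and 6 in line 2. The Pramel7 difference was 3.0 without replicate 2 of line 1 and 2.65 without replicate 1 of line 2. The Pramel7 call was lost against line 1 alone (adjusted p 0.0694), that of Pramef8 against line 2 alone (0.0574), and each was lost when 1 TRIM24_KO library was left out (0.0668 without replicate 1 for Pramel7, 0.0642 without replicate 2 for Pramef8). In TRIM33_KO against the same mean 1 of 6 was called higher and 0 lower, beside 14.8% and 8.64% of all genes (7.32% and 3.33% without TRIM33_KO replicate 2). It was Pramef8, at 0.25 ± 0.09 (adjusted p = 0.0446), and most alternatives, RLE scaling and DESeq2 among them, lost the call. WT pLV2 line 2 against line 1 had 0 of 6 higher and 2 lower, beside 20.8% and 17.1% of all genes. They were Pramef12 and Pramef25, the latter from 20 counts over the 2 line 1 libraries and 3 over the 2 of line 2, with an edgeR log2 difference of -2.87 ± 0.99 (adjusted p 0.0303) that was not called when any 1 of these 4 libraries was left out (0.0598 to 0.109). Marker lists moved between the lines before DOX too. Of the 8 fibroblast genes tested, 5 were called higher and 1 lower in line 2 against line 1, 4 and 0 in TRIM33_KO, and 1 and 5 in TRIM24_KO. Of the 10 pluripotency genes it was 3 and 5, 2 and 4, and 2 and 6, in the same order. Their part in these results was not tested.

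After DOX, the 3 strongly responding genes differed between lines in the second set, and each moved in the same direction as the other two in every such comparison. Pramef25 reached 477 ± 68.7 CPM in TRIM33_KO, 307 ± 24.3 in line 2, 165 ± 20.9 in line 1 and 161 ± 46.5 in TRIM24_KO (SD, n = 2). In the first set it reached 181 ± 35.9 CPM in DUXBL_KO and 117 ± 66.6 in WT, scaled apart. For Pramef6, Pramef17 and Pramef25, TRIM33_KO was above line 2 and line 2 above the rest with no overlap of libraries, while neighbours in the order among the other 4 groups overlapped.

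The 2 WT pLV2 lines therefore differed from each other before any knockout was considered. In line 2 against line 1 with DOX, 3 of 6 members were called higher and 1 lower, beside 19.8% and 19.6% of all genes. Pramef17 was higher by 1.21 ± 0.16 on the log2 scale (edgeR adjusted p = 1.34e-05), Pramef25 by 0.90 ± 0.15 (0.000122) and Pramef6 by 0.89 ± 0.16 (0.000519), and Pramef12 was the one called lower. Duxf3 moved the other way, at 7.23 and 8.34 CPM in line 1 and 4.44 and 4.0 CPM in line 2, and its part in the result was not tested.

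TRIM33_KO with DOX, against the mean of both WT pLV2 lines, had 4 of 6 members called higher and 0 lower, beside 13.9% and 13.0% of all genes (17.16% and 9.05% with RLE size factors, 7.6% and 6.99% without replicate 1 of TRIM33_KO with DOX, 9.68% and 6.38% without replicate 2). Pramef17 was higher by 1.14 ± 0.13 (edgeR adjusted p = 6.05e-06), Pramef25 by 1.09 ± 0.12 (6.54e-06), Pramef6 by 1.01 ± 0.13 (6.33e-05) and Pramef8 by 0.40 ± 0.09 (0.00248). Against line 2 alone, where the shares of all genes called were 2.27% higher and 0.89% lower, only Pramef25 was called, at 0.64 (adjusted p 0.0231), while Pramef17 was at 0.54 (0.0529), Pramef6 at 0.56 (0.0627) and Pramef8 at 0.33 (0.0779). Duxf3 was at 6.95 and 5.70 CPM in TRIM33_KO, between the values of the 2 WT lines.

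The libraries labelled TRIM24_KO with DOX, against the same mean, had 0 of 6 members called higher and 3 lower, beside 21.4% and 19.1% of all genes. Pramef17 was at -0.77 ± 0.15 (edgeR adjusted p = 0.000585), Pramef6 at -0.64 ± 0.16 (0.00389) and Pramef25 at -0.49 ± 0.13 (0.00579). Against line 1 alone (17.11% and 15.03% of all genes) none of the 3 was called, at -0.16, -0.20 and -0.04 (adjusted p 0.511, 0.440 and 0.854), and against line 2 alone (23.57% and 23.28%) all 3 were, at -1.37, -1.09 and -0.94. The calls thus depended on which WT line was the reference, as the plot of differences between lines shows beside the line 2 against line 1 values. Replicate 2 of this group also stands apart, with 30.4% of its gene counts on the single gene CT010467.1, as does replicate 2 of TRIM33_KO with DOX, with 12.9%. Leaving out CT010467.1 kept the 3 calls, but without replicate 1 of TRIM24_KO with DOX only Pramef17 was called, with Pramef6 at -0.52 (adjusted p 0.0751) and Pramef25 at -0.22 (0.200). Duxf3 was at 3.15 and 2.98 CPM in these libraries, the lowest of the second set with DOX. The summed level of the 12 fibroblast genes also set this line apart, at 705 CPM on average with DOX against 1507 in line 1 and 1622 in line 2, with 3 of the 8 genes tested called lower and 1 higher by edgeR. In the other two comparisons with DOX it was 2 higher and 1 lower in TRIM33_KO, and 3 higher and 1 lower in line 2 against line 1. Without DOX the TRIM24_KO sum was 720 CPM against 1521 and 1778. With DOX, 5 of the 10 pluripotency genes were called lower and 2 higher in TRIM24_KO, 6 and 2 in TRIM33_KO, and 7 and 2 in line 2 against line 1. The part of these genes in the results was not tested.

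**Figure D4:**
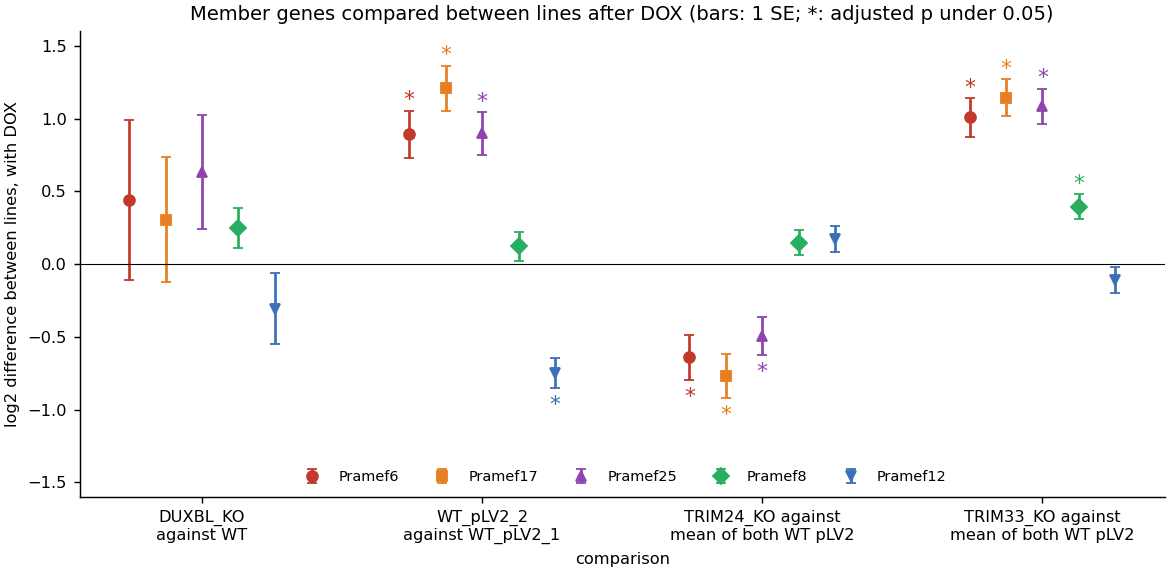
Fitted log2 difference between lines in libraries with DOX for 5 members, with bars of 1 SE and an asterisk at an adjusted p under 0.05. Pramef6, Pramef17 and Pramef25 lie at 0.89 to 1.21 for line 2 against line 1, at -0.77 to -0.49 for TRIM24_KO and at 1.01 to 1.14 for TRIM33_KO, while no member was called for DUXBL_KO against WT.

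In DUXBL_KO against WT with DOX, 0 of 7 members were called, 0 had an unadjusted p under 0.05 and DESeq2 called 0, beside 0.0720% of all genes called by edgeR, 0.25% higher and 0.69% lower by DESeq2, and 1777 of 18060 with such a p. Pramef25 was at 0.63 ± 0.39 (95% interval -0.14 to 1.41), Pramef6 at 0.44 ± 0.55 (-0.64 to 1.52) and Pramef17 at 0.31 ± 0.43 (-0.54 to 1.15). Differences within these intervals are not excluded. The intervals come from the normal distribution and are likely too narrow with 2 libraries per group. The spread within WT with DOX was wide, with Pramef25 at 164 and 69.5 CPM in its 2 libraries. Duxf3 was at 1.39 and 1.10 CPM in WT and at 4.90 and 2.87 CPM in DUXBL_KO.

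Whether the size of the DOX effect itself differed between lines was tested as an interaction, and edgeR called 0 members in each of 4 comparisons. For DUXBL_KO minus WT, 0 of 7 had an unadjusted p under 0.05 and DESeq2 called 0, beside 93 of 18060 genes with such a p and 0.00% of all genes called by edgeR. For TRIM24_KO minus the WT pLV2 mean, 2 of 6 had such a p (Pramef6 and Pramef12), beside 1306 of 18079 genes, and DESeq2 called 0, beside 0.254% of all genes called by edgeR. For TRIM33_KO, 1 of 6 had such a p (Pramef17), beside 2221 of 18079 genes, and DESeq2 called 0, with an edgeR share of 0.542%. For line 2 minus line 1, 2 of 6 had such a p (Pramef17 and Pramef25), beside 1559 of 18079 genes, and the edgeR share was 0.271%. There DESeq2 called 1 member, Pramef25, beside 0.58% of all genes higher and 0.12% lower. These genes were named after their values were seen. For Pramef8, with enough counts on both sides, the difference was 0.28 ± 0.20 for DUXBL_KO, -0.18 ± 0.13 for TRIM24_KO, 0.14 ± 0.12 for TRIM33_KO and -0.03 ± 0.15 for line 2. For the 3 genes with almost no reads before DOX an interaction rests on a handful of counts, and the comparisons with DOX above carry the information.

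Other genes of the family were taken from a list of 26, and in the 6 lines 3 to 9 of the 9 or 10 that could be tested were called higher with DOX and 0 lower. By line it was 3 of 9 in WT, 5 of 9 in DUXBL_KO, 7 of 10 in line 1, 9 of 10 in line 2, and 8 of 10 each in TRIM24_KO and TRIM33_KO, while 9 of the 26 never exceeded 3 counts in any library. The shares of all genes called higher, 2.92% in WT to 15.1% in TRIM33_KO, are no measure for these counts, since 8 of the 9 genes called in any line had at most 11 counts in every untreated library and passed the filter through their DOX libraries. BC080695 had at most 9 counts without DOX and 1270 to 5371 with it, AA792892 at most 3 and then 558 to 2986, Gm13043 at most 1 and then 605 to 2604, and BC061212 at most 1 and then 47 to 447. For Gm13043 99.3% and for BC061212 100% of the runs of 75 bases occur in other genes, and BC080695 overlaps Gm13057, so these counts may stand for several copies. Pramel1, next to Pramef8 and with no shared run, was called in the 4 lines of the second set with log2 fold changes of 1.81 ± 0.21 to 2.25 ± 0.19, and Pramel5 had at most 1 count without DOX and 4 to 26 with it. The list of 26 is not the whole family: RefSeq names place 40 genes in it, members included, and 21 of these were tested in each set. Among cluster genes outside the list, Gm13078 had at most 3 counts without DOX and 650 to 4362 with it. Gm13119 had at most 11 and then 609 to 2065.

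Along the chromosome 4 cluster, from Pramel1 to Pramef12, GENCODE lists 47 genes (a window drawn after their values were seen). Of these 22 were tested in at least 1 line, 20 were called higher in at least 1 and 9 in all 6, among them Pramef6, Pramef17 and Pramef25, and 20 genes never exceeded 3 counts. Of the 20 called higher, 18 had at most 11 counts in every untreated library and so entered the test through the libraries where they are high, and their count is not to be read against the 2.92% to 15.1% of all genes called higher by line. Pramef12 was the only gene of the window called lower in any line. The plot along the cluster shows Pramef8 and Pramef12, the 2 members well expressed before DOX, near its ends.

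**Figure D5:**
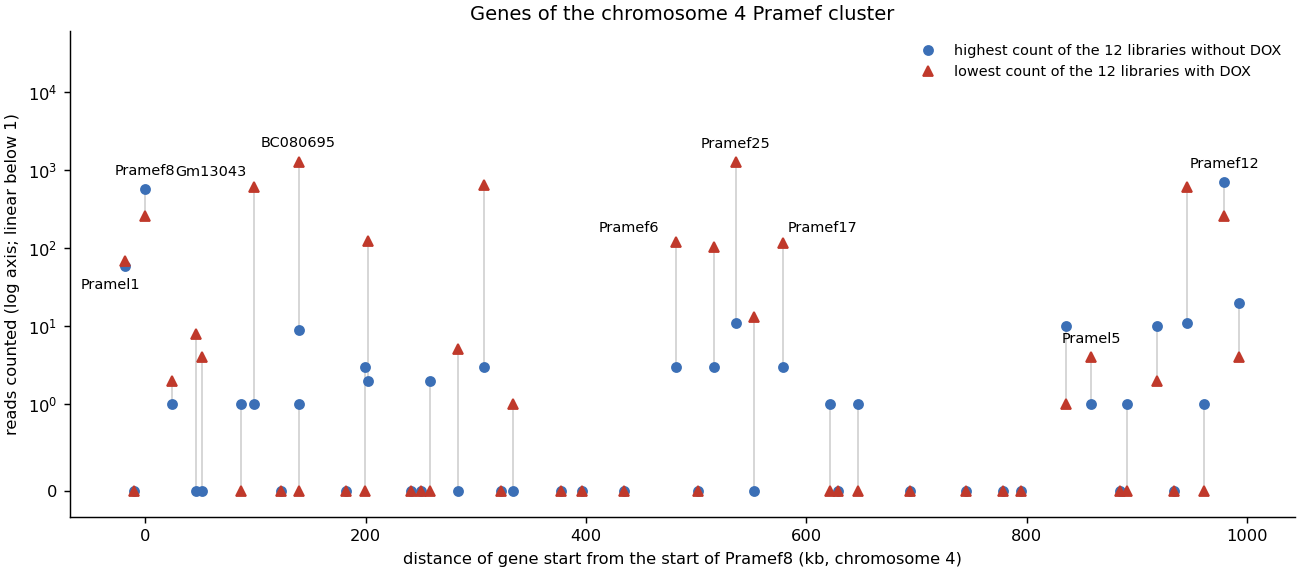
Reads counted per gene (log axis, linear below 1) against the distance of the gene's start from that of Pramef8 in kb, with a circle at the highest count of the 12 libraries without DOX and a triangle at the lowest of the 12 with DOX. For Pramef6, Pramef17 and Pramef25 the lowest treated count (118, 116 and 1263) lies above the highest untreated one (3, 3 and 11), and for Pramef8 and Pramef12 it does not.

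PRAMEL7 is known to work with a CUL2 ligase in the breakdown of UHRF1, the protein that brings DNMT1 to newly copied DNA. Of 12 genes of this ligase and of DNA methylation (Cul2, Elob, Eloc, Rbx1, Uhrf1, Uhrf2, Dnmt1, Dnmt3a, Dnmt3b, Dnmt3l, Tet1 and Tet2), all were tested, and with DOX 0 were called higher and 0 lower in WT, 1 and 0 in DUXBL_KO, 2 and 2 in line 1, 1 and 5 in line 2, 1 and 2 in TRIM24_KO, and 2 and 6 in TRIM33_KO. In WT the 0 is from edgeR, while 2 of the 12 had an unadjusted p under 0.05 (1948 of 18060 over all genes) and DESeq2 called 1 (Eloc, beside 3.96% of all genes higher and 0.25% lower), and the shares of all genes given above apply to each line, with their change under another scaling. In either direction, DESeq2 called 2 of the 12 in DUXBL_KO, 4 in line 1, 4 in line 2, 2 in TRIM24_KO and 6 in TRIM33_KO. Its shares of all genes for line 2 and TRIM33_KO are given above. The lower sums of pluripotency genes with DOX in line 2, TRIM24_KO and TRIM33_KO stand beside the calls below, and their part in them was not tested. The median log2 fold change of the list lay between -0.22 in TRIM33_KO and 0.10 in WT, beside -0.12 and 0.01 over all genes. Tet2, an enzyme that oxidises methylated cytosine, fell in TRIM33_KO, with a log2 fold change of -0.95 ± 0.11 (edgeR adjusted p = 1.58e-06), and in TRIM24_KO and line 2, at -0.73 and -0.71. Eloc, which encodes the ligase adaptor elongin C, rose in DUXBL_KO and in all 4 lines of the second set, by 0.39 to 0.77. Tet1, an enzyme of the same kind as Tet2, fell in TRIM33_KO and line 2, at -0.40 and -0.28. Dnmt3l, a cofactor of de novo methylation, fell in TRIM33_KO, line 2 and line 1, at -0.46, -0.39 and -0.30. Uhrf1, the target of PRAMEL7, is given although its p was not among the 4 smallest of the list, a choice made after its values were seen. It was called only in TRIM33_KO, where its log2 fold change with DOX was 0.24 ± 0.08 (edgeR adjusted p = 0.0274). The estimates in WT and DUXBL_KO were larger, at 0.39 ± 0.10 (0.102) and 0.40 ± 0.10 (0.0642), with treated libraries above untreated ones in both. In line 1, line 2 and TRIM24_KO they were 0.18, 0.14 and 0.14 (0.159, 0.220 and 0.285). These are RNA levels and do not measure the UHRF1 protein or its breakdown.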

How the data were processed

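The deposited tables give raw counts per gene and per repeat subfamily, as whole numbers in 1 column per library, and all 24 were used. Per the labels' protocols the authors depleted rRNA, kept strand and sequenced 75 bp from both ends. The submitters' processing notes name bcl2fastq 2.20.0, cutadapt 1.18, STAR 2.7.6a and mm10, while the counting tool and its handling of strand and of reads with several matches are not given in the sources used here.

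From these counts, library sizes and TMM factors were computed over genes, and CPM used the scaled sizes. Gene IDs were matched to GENCODE M21: 54349 of 55487 with their version, 792 without it, and 346 not at all. Genes were kept with filterByExpr, and 1 mean per group was fitted with edgeR 4.0.16 (glmQLFit and glmQLFTest, 2-sided) in R 4.3.3, apart for the 8 libraries of the first set and the 16 of the second, with a common coefficient of variation of 17.8% and 8.63%. The p-values were adjusted over all genes tested in each of 18 comparisons, with a threshold of 0.05. Each SE is the size of the log2 fold change divided by the square root of the F statistic. Folds against 0 counts used 3 counts over the group as a limit, and ratios against 1 to 3 counts an exact 95% interval. Replicates differed by more than sampling noise in each group (chi-square per degree of freedom 3.04 to 285).

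The genes named were the 7 members, the 6 most abundant other family genes called with DOX, the 4 of 12 ligase and methylation genes with the smallest p, and the 2 genes most like each member, while Uhrf1 was added after its values were seen. Of the family list, AU018829 and Gm16367 were not matched in M21. Members and lists were chosen with earlier results of these data known. The planned check on near-identical RefSeq proteins was not made, and shared runs of 75 bases in GENCODE transcripts were counted in its place. Alternatives were RLE size factors, other filters, library sizes with repeats or without CT010467.1, a replicate block, DESeq2 1.42.0, other sets of libraries, each WT pLV2 line as the reference, a 2-fold minimum, and each library left out. The fit was also run on simulated counts, and the outcome is not given here.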

Additional observations from a re-analysis of the deposited data

How the results depend on the processing

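Refits of the fold changes of single called members left 889 values with their direction and call, 56 with their direction but not the call, and 0 reversed. The counts of called members changed as follows. With DOX in WT, 3 fell to 1 when only the 2 WT groups were fitted, and in DUXBL_KO 3 rose to 5 with all 24 libraries in 1 fit. With no filter on low counts, 1 member was called in DUXBL_KO against WT with DOX. For TRIM24_KO without DOX, 2 fell to 1 with a mean of at least 10 counts and with a 2-fold minimum. For TRIM33_KO without DOX, 1 fell to 0 with RLE size factors, no filter, CT010467.1 left out, DESeq2, only the compared groups, all 24 libraries, WT pLV2 line 2 as the reference and a 2-fold minimum, and rose to 2 with line 1 as the reference. The shares of all genes called there were 1.21% higher and 0.35% lower against line 2 and 22.79% and 17.62% against line 1. For line 2 against line 1 without DOX, 2 fell to 1 with only the compared groups, all 24 libraries and a 2-fold minimum. For TRIM24_KO with DOX, 3 fell to 1 with all 24 libraries, to 0 with line 1 as the reference and to 0 with a 2-fold minimum. For TRIM33_KO with DOX 4 fell to 1 against line 2 (2.27% of all genes higher and 0.89% lower), and for line 2 against line 1 with DOX 4 fell to 1 with a 2-fold minimum. The interaction of line 2 with line 1 rose from 0 to 1 with no filter, DESeq2 and only the compared groups. Other than by fewer libraries or genes in a fit, or a stricter rule, the cause was not tested.

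Leaving out 1 library gave 1 to 3 calls with DOX in WT (1 without untreated replicate 2), 3 to 3 in DUXBL_KO, 4 to 5 in line 1, 4 to 4 in line 2, 4 to 4 in TRIM24_KO and 4 to 5 in TRIM33_KO. Without DOX it gave 0 to 0 for DUXBL_KO, 1 to 2 for TRIM24_KO (1 without either of its libraries), 0 to 1 for TRIM33_KO (0 without any of 13 libraries) and 1 to 2 for line 2 against line 1 (1 without any of its 4 libraries). With DOX it gave 0 to 0 for DUXBL_KO, 1 to 4 for TRIM24_KO (1 without its replicate 1), 3 to 5 for TRIM33_KO and 4 to 4 for line 2 against line 1. The interactions gave 0 to 0, except that line 2 minus line 1 gave 0 to 1, with 1 called without either TRIM24_KO library with DOX.

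The labels do not say what a replicate number marks. The numbers were not treated as pairs in either set because 1 line, line 1 of the second set, lay under a correlation of 0.1. The first set was fitted apart, so this gives no ground for leaving the pairing out there. The deviations of same-numbered libraries with and without DOX correlated at 0.571 in WT, 0.795 in DUXBL_KO, 0.0435 in line 1, 0.411 in line 2, 0.244 in TRIM24_KO and 0.142 in TRIM33_KO. With the replicate block the DOX comparisons called 3 members in WT, 4 in DUXBL_KO (Pramef8 added, adjusted p 0.0229 from edgeR), 4 in each WT pLV2 line and in TRIM24_KO and 5 in TRIM33_KO, and the other counts equalled those without it. Leaving out 1 library gave 0.29% to 3.41% of all genes higher with DOX in WT, 2.54% to 4.41% in DUXBL_KO, 6.8% to 10.43% in line 1, 9.07% to 13.2% in line 2, 7.57% to 10.25% in TRIM24_KO and 11.22% to 15.74% in TRIM33_KO. The shares lower were 0% to 0.06%, 0.04% to 0.31%, 1.16% to 5.54%, 5.62% to 13.34%, 2.66% to 6.65% and 14.63% to 22.8%, in the same order. Between lines without DOX the shares higher and lower were 16.2% to 21.97% and 11.84% to 21.35% for TRIM24_KO, 7.32% to 15.11% and 3.33% to 9.82% for TRIM33_KO, and 13.78% to 20.33% and 10.93% to 17.82% for line 2 against line 1. With DOX they were 14.03% to 20.89% and 12.34% to 18.59%, 7.6% to 13.92% and 6.38% to 13.16%, and 13.76% to 19.92% and 12.6% to 19.12%. For DUXBL_KO against WT the shares higher and lower were 0.67% and 1.03% without DOX and 1.34% and 1.3% with DOX when no filter was used, and 0.69% and 1.57%, then 0.95% and 1.81%, with the replicate block. Depth limits Pramel6 and Pramel7, at 1 to 23 counts, and the untreated levels of Pramef6, Pramef17 and Pramef25, at 0 to 11 counts.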
